A study of Drosophila melanogaster with 3 samples.

Results

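The regions described here are the deep intronic regions of the chiffon protein (Chif) in Drosophila melanogaster embryos: thresholded ChIP-seq regions whose summit lay inside an annotated gene, in no exon, and more than 2000 bp from the nearest transcription start site (TSS) of any transcript. They numbered 1029 and the other regions of the thresholded list 4006, so they made up 20.4% of that list (exact binomial 95% interval 19.3% to 21.6%, counting error only). The 4006 comprised 2388 promoter regions (summit within 500 bp of a TSS), 803 intergenic regions, 686 in introns nearer to a TSS and 129 in exons, with promoters taken first. Position alone chose the members. No measured level was used beyond the authors' threshold.

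Chromatin came from whole embryos of mixed sex, 0 to 24 h old, of the strain chif-RB-GFP, a stable transgenic line that makes Chif with a C-terminal GFP, and was recovered with an anti-GFP antibody after sonication to 200 to 800 bp. All 3 biological replicates belonged to this 1 group and carried the transgene. The note on the fusion names chif-RB for replicate 1 but plain chif for replicates 2 and 3, and which chif products bear the tag is not known here. A line without the tag was not analysed here. Embryos of this age span hold all developing tissues, so a region may come from any share of the cells.

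Chiffon is related to Dbf4, which activates the Cdc7 kinase at origins of DNA replication, and a separate part of its product joins a complex with the histone acetyltransferase Gcn5. Introns of fly developmental genes are long and often hold enhancers, which are stretches of DNA where transcription factors bind and from which a distant promoter is controlled. A promoter class of housekeeping genes carries the DRE and Motif 1 elements.

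The sequence around 7 members is given first, because the letters in capitals recur in the results below. Each run is 251 bases of the genome centred on the summit, forward strand, from the RefSeq copy of the Release 6 assembly, which is dm6. Capitals mark every CACTG, or CAGTG where it lies on the other strand. Members on 1 of the large autosome arms are not printed. Of the rest, the first 3 runs are the strongest, and aos with the last 4 are the 5 strongest that hold the 7 letters CACTGAG within 100 bp of the summit.
Tlk, chrX:3742115-3742365: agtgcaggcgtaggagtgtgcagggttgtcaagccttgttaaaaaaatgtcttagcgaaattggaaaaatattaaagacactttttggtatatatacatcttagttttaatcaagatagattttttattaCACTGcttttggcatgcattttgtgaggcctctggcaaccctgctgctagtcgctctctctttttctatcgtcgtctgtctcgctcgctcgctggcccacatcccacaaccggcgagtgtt
Raf, chrX:2297601-2297851: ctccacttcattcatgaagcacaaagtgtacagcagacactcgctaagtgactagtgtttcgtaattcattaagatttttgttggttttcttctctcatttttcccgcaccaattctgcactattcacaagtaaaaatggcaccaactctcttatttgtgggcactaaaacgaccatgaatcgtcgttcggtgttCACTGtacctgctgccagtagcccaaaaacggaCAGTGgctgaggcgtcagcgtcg
aos, chr3L:16480440-16480690: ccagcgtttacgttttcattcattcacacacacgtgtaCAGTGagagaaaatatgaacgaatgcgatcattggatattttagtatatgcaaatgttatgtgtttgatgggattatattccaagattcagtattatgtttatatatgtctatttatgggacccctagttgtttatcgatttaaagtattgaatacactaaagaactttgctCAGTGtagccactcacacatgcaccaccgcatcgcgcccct
ImpL2, chr3L:4230369-4230619: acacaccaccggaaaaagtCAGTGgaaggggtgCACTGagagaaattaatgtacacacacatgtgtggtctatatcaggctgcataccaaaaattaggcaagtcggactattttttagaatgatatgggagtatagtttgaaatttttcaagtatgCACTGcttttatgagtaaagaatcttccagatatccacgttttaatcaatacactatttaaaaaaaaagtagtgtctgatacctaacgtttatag
kirre, chrX:3097099-3097349: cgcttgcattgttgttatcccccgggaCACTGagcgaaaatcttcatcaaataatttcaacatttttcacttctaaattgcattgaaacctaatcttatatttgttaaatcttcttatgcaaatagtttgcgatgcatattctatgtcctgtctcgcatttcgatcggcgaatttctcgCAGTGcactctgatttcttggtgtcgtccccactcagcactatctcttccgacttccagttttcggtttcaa
CG34417, chrX:6549738-6549988: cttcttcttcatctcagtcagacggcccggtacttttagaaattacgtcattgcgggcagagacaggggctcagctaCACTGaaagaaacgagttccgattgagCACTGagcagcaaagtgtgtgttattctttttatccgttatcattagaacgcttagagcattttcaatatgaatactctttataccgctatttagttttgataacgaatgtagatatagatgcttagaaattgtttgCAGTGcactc
CG6959, chr3R:11849690-11849940: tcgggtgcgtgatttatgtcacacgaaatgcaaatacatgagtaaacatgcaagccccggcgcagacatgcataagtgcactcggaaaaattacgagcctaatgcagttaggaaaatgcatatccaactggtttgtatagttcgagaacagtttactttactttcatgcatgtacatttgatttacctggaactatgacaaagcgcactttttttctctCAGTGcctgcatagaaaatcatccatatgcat

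In aos the capitals stood 85 bp below and 87 bp above the summit, and in kirre 96 bp below and 56 bp above. In CG34417 they stood 46 and 19 bp below and 118 bp above. The strongest member of all, in Tlk, held 1 copy, 7 bp above its summit, which is the middle base of each run.

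The members were present across the range of strength but less often at its top. The authors' signal, their caller's own score for a region, had a median of 170 over members (range 106 to 1601) and of 182 over the other thresholded regions. Of the 100 strongest regions 11 were members, of the 500 strongest 64, which is 12.8%, and of the 1000 strongest 164. The lowest signal was 106 for both kinds of region, where the threshold ended the list. Most members were 410 bp wide (the median and both quartiles), against quartiles of 360 bp and 410 bp for the others.

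Each replicate had its own list of 30000 regions, and its regions of highest signal, as many as the thresholded list holds, are called its top regions here. Of these, 18.8% were deep intronic in replicate 1, 23.5% in replicate 2 and 19.3% in replicate 3 (20.6% ± 2.57, SD, n = 3). Replicate 2 stood above the others. Over all 30000 regions the shares were 21.3%, 27.8% and 22.8%, in the same order. Among the 500 strongest regions of each replicate the share was 13.8%, 12.2% and 12.6%, lower in all 3 than further down the list. By contrast, promoter regions made up 56.2%, 61.8% and 55.6% of those 500 and 20.8%, 11.2% and 20.1% of the last 5000.

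**Figure D1:**
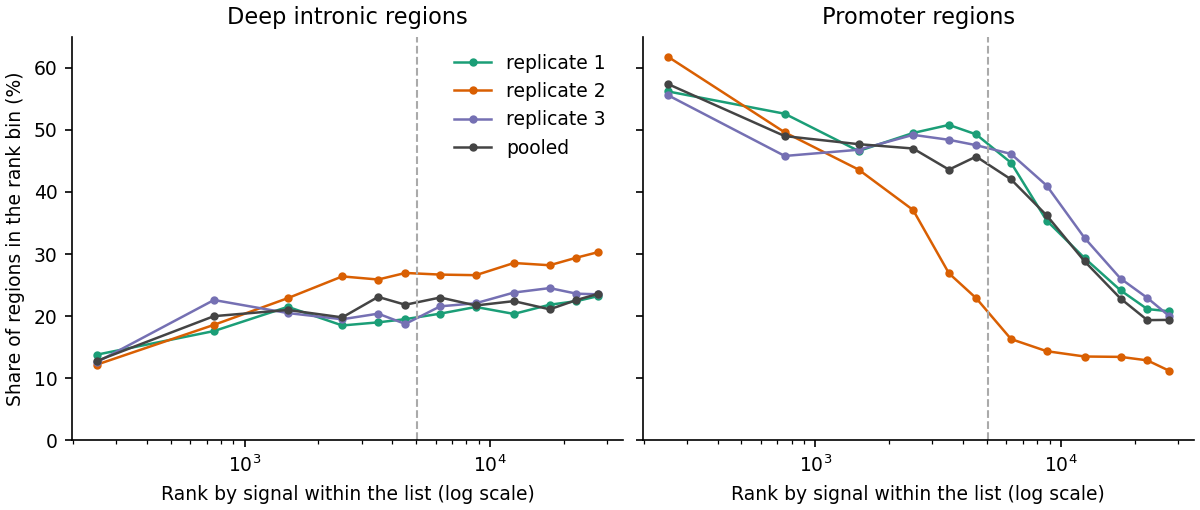
Share of regions that were deep intronic (left) or promoter regions (right) by rank of signal within each list of 30000, for the 3 replicates and the authors' pooled list, with each point at the middle of its rank bin on a log axis. The deep intronic share rose from between 12.2% and 13.8% in the first 500 regions to between 23.2% and 30.3% in the last 5000, while the promoter share fell; the dashed line marks the length of the thresholded list.

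Within the top regions of a replicate, a rank percentile of 100 is the strongest region and 0 the weakest. The median percentile of deep intronic regions was 49.1 in replicate 1, 45.0 in replicate 2 and 47.8 in replicate 3, against 50.3, 52.0 and 50.6 for all other regions. Deep intronic regions ranked lower in 3 of 3 replicates, and deep intronic minus other averaged -3.60 points (SD 3.00). The exact two-sided sign-flip permutation test over the 3 replicates gave p = 0.25, the smallest p that 3 replicates can give, so this design cannot pass 0.05.

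Members held summits from the top regions of single replicates about as often as other thresholded regions did. The thresholded list was derived from these same 3 replicates, so such a summit is not an independent recovery of a region. A member is called backed by a replicate when its interval held the summit of a top region there. Replicates 1, 2 and 3 backed 81.6%, 75.1% and 85.6% of members (80.8% ± 5.30, SD, n = 3) and 85.7%, 68.0% and 89.1% of the other regions (80.9% ± 11.3). Members were therefore backed less often by replicates 1 and 3 and more often by replicate 2. The mean difference was -0.15 percentage points (SD 6.29), with p = 1 in the exact sign-flip permutation test. All 3 replicates backed 593 members, 57.6%, where the background over all thresholded regions was 55.9%. Another 286 were backed by 2 replicates, 143 by 1 and 7 by none. The pattern in which replicates 1 and 3 backed a region and replicate 2 did not held for 15.6% of members and for 25.6% of promoter regions. Replicate 2 was the library that stood apart: its top regions held 37.1% promoter regions, against 50.1% and 48.5% in replicates 1 and 3. Without it the mean difference in backing was -3.78 points, with both remaining replicates negative. A stricter count, of members backed by both replicates left when 1 was set aside, gave 675 without replicate 1, 754 without replicate 2 and 636 without replicate 3.

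In the genome, members were sparser than the rest of the list but not rare. Deep intronic sequence by the same rule came to 42.3 Mb, 30.8% of the 137.5 Mb of the assembled arms. Members stood at 24.3 per Mb of it, and the other regions at 42.1 per Mb of all other sequence. By class, there were 131 per Mb for promoters and 59.9 per Mb for introns nearer to a TSS. Intergenic sequence held 20.6 per Mb and exons outside promoters 4.86 per Mb. In the replicates' top regions the deep intronic density was 22.4, 28.0 and 23.01 per Mb. These values lay close to the intergenic densities of 19.8, 24.3 and 20.8 per Mb and were higher in 3 of 3 replicates.

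The X chromosome held more members per Mb of deep intronic sequence than the large autosome arms did. The densities were 33.9 per Mb on X, from 271 members, and 22.97 per Mb over 2L, 2R, 3L and 3R together, from 757. The replicates gave 29.9, 36.7 and 30.2 per Mb on X, and 21.5, 27.0 and 22.2 per Mb on the large autosome arms. X was higher in all 3. For the other thresholded regions, over all other sequence, the densities were 43.8 per Mb on X and 43.5 per Mb on those arms. Chromosome 4 held 1 member in 0.445 Mb, inside ey, which encodes the eye-determining factor Eyeless. The Y chromosome held none in 0.937 Mb. The autosome figure counts long genes without members, such as Myo81F and Pzl on 3R, with 1938 kb and 699 kb of deep intronic sequence. On X the protein-coding gene without members that had the most such sequence was dpr8, with 128 kb. The embryos were of mixed sex. The part of X dosage, or of such genes, in these densities was not tested.

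The distance from a member to its nearest TSS had a median of 5390 bp. Of all members 561 (54.5%) lay more than 5000 bp away, 232 (22.5%) more than 10000 bp and 60 (5.83%) more than 20000 bp. The farthest was in hth, which encodes the homeodomain partner of Hox proteins Homothorax, 49877 bp from any TSS. It had a signal of 155, and ranks of 3561, 3083 and 3158 in the lists of replicates 1, 2 and 3. A further member in hth lay 47651 bp away. The next were in luna (43202 bp), mamo (42313 bp) and Snoo (41822 bp). Luna and Mamo are zinc finger transcription factors, and Snoo is the fly Ski and SnoN relative. Of these 5 the mamo member had the highest signal, 258, and ranked 1161, 1267 and 2012 in the replicates.

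At the edge of the distance rule, the members closest to 2000 bp were in Ptp61F (2002 bp, signal 275), Egfr (2004 bp, signal 114) and px (2010 bp, signal 302). The regions just outside it were in hiw (1997 bp, signal 413), Dys (1996 bp, signal 219) and stumps (1993 bp, signal 132).

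Nearly all members, 999 of 1029, lay inside a protein-coding gene, and 63 lay inside more than 1 gene. Their introns had a median length of 16796 bp. Of the 999, 39.3% were in the first intron of their transcript, 34.6% in the second and 26.0% in later ones. Of the windows, each 100 bp to either side of its centre, that tile all deep intronic sequence in such genes without overlap, 24.4% were in first, 27.9% in second and 47.7% in later introns. Members thus lay more often in first and second introns than these windows did. The windows also cover long genes without members, such as Myo81F and Pzl, and the part of such genes in the difference was not tested. Repeats were not prominent: 210 summits (20.4%) lay in soft-masked sequence, against 24.9% of the window centres, and 6 lay in an annotated transposon.

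The 10 strongest members included ones in kinase, signalling and nuclear receptor genes. The member in Tlk, the Tousled-like kinase of chromatin assembly, ranked 32 in the thresholded list and 27, 42 and 28 in the replicates, with a signal of 1601. It lay at chrX:3742016-3742429, in the second intron, 2343 bp from the nearest TSS. The member in Raf, the kinase between Ras and MEK, had a signal of 1240 and ranked 72, 46 and 51 in the replicates. It lay 2260 bp downstream of the start of Raf, at chrX:2297550-2297897. The third was in the first intron of aos, whose product Argos is a secreted inhibitor of the EGF receptor, and inside the overlapping gene CG33158. It had a signal of 1188 and ranked 61, 77 and 57. These 3 members kept their place within the 100 strongest regions in every replicate.

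The other members among the 10 strongest had signals from 977 to 1055. One lay where CG46321, CG12912 and Hr3 overlap; Hr3 is a nuclear receptor of the ecdysone cascade. Others were in CG32486, in JIL-1, the histone H3 kinase of open chromatin, and in fz, the Wnt and planar polarity receptor Frizzled. CG12769, babos and Gug, which encodes the Atrophin corepressor, held the remaining 3. All 10 were backed by all 3 replicates. The fz member was the farthest of the 10 from a TSS, at 22175 bp, and ranked 86, 146 and 82 in the replicates. The JIL-1 member varied most between them, with ranks of 92, 245 and 60.

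Members were spread over many genes. Protein-coding genes with any deep intronic sequence numbered 4224, and 544 of them (12.9%, the background for the gene lists below) held 1 or more members. Of the hosts 312 held exactly 1 member, 116 held 3 or more and 36 held 5 or more. Protein-coding hosts from the top regions numbered 498, 664 and 531 in the replicates (564 ± 87.9, SD, n = 3), and 404 genes were hosts in the thresholded list and in each replicate. Hosts had a median of 17.8 kb of deep intronic sequence, and the other genes 1.01 kb. Among the 50 genes with the most deep intronic sequence 21 were hosts. Myo81F, with 1938 kb, and Pzl, with 699 kb, held none. They were chosen as the longest after the values were seen. Of the members 398 (38.7%) had another within 5000 bp, and the median distance to the nearest other member was 8636 bp. The spacing of other regions was not counted, so whether members cluster beyond their density was not tested.

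The host with the most members was kirre, which encodes an adhesion protein of muscle founder cells. It held 15 in 288 kb of deep intronic sequence, where the top regions of replicates 1, 2 and 3 gave 13, 21 and 13. The gene sbb, which encodes the zinc finger corepressor Scribbler, held 11 in 46.8 kb (13, 6 and 11 in the replicates). The gene ush, which encodes the GATA cofactor U-shaped, held 9 in 41.4 kb (8, 6 and 7). Per kb, Raf was the densest of these, with 8 in 24.5 kb and 7 in each replicate. Replicate 2 was thus high for kirre and low for sbb.

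Other genes among the 10 hosts with the most members were jing with 8, and Antp and mew with 7 each. Jing is a zinc finger factor, Antp a Hox protein and mew an integrin alpha subunit. In all 6 genes held 7 members, and the 4 with less summed signal fell outside the 10. One of these was shn, a zinc finger factor of the Dpp pathway, with its 7 members in 29.8 kb (5, 8 and 5 in the replicates). The 10 also held 3 long noncoding RNA genes, all on X: lncRNA:CR44357 with 10 members, lncRNA:CR32773 with 9 and lncRNA:CR44999 with 8. Strand was not known for the regions, so a summit in a noncoding gene cannot be assigned to it over a neighbour or an overlapping gene.

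**Figure D2:**
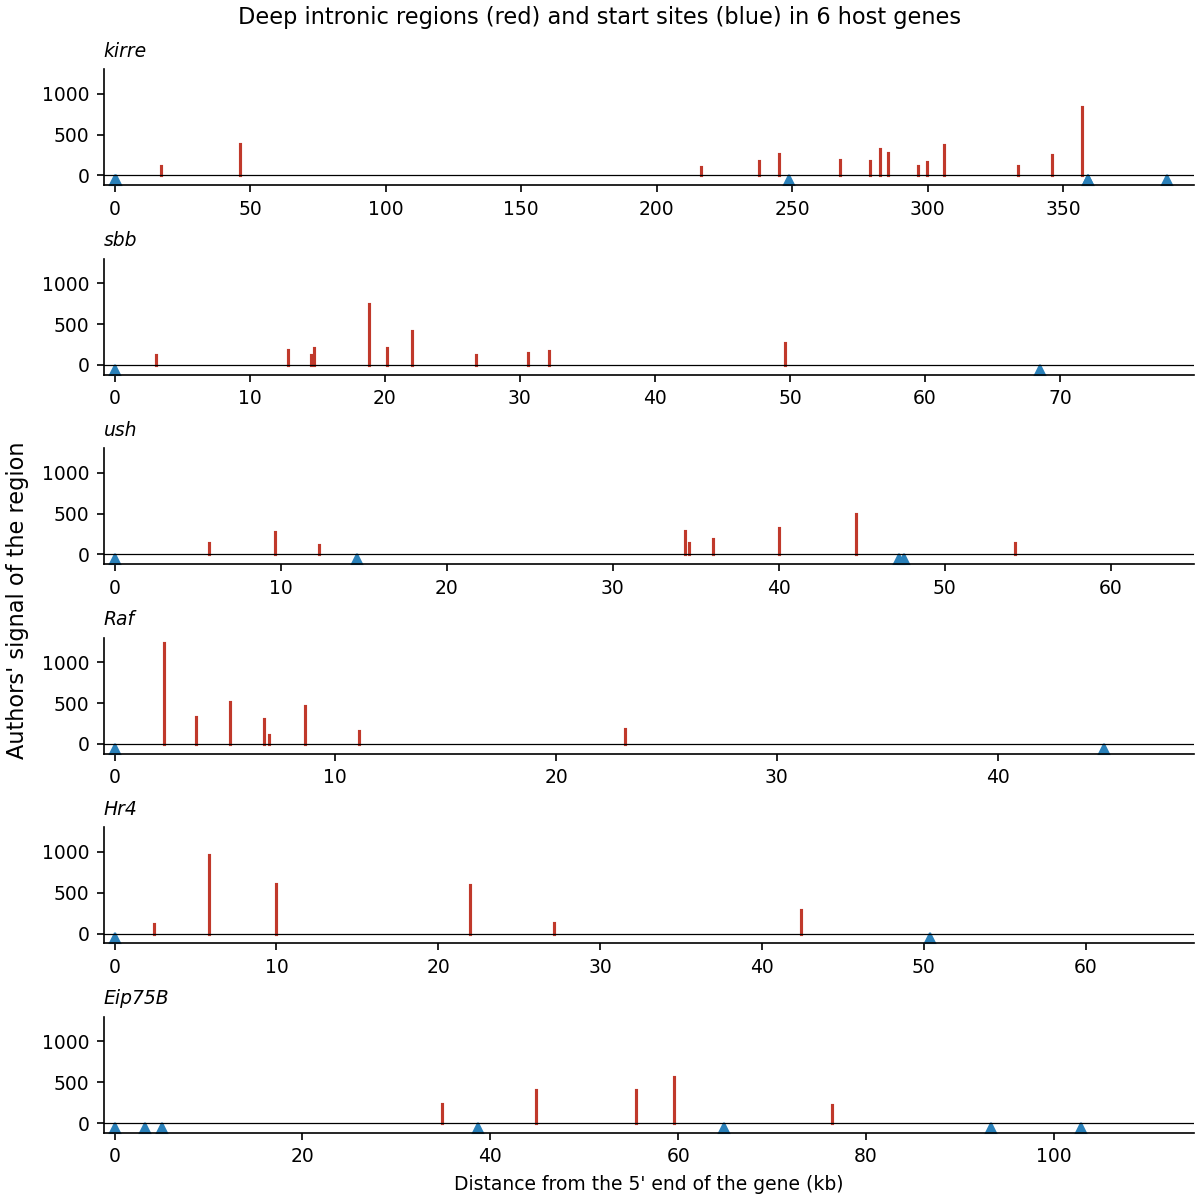
Deep intronic regions in 6 host genes, placed by distance from the 5' end of the gene in kb (horizontal axis, a different span for each gene), with bar height giving the authors' signal and blue triangles the annotated start sites. In Raf 7 of 8 members lie in the first 12 kb, with the strongest at 1240; kirre carries 15 members, most of them in its 3' part; sbb, ush, Hr4 and Eip75B carry 11, 9, 6 and 5.

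Signalling pathway genes were hosts in 35 of 69 with deep intronic sequence (50.7%, against 12.9% of all such genes). In replicates 1, 2 and 3 the share was 50.7%, 44.9% and 49.3%. The strongest members were in aos, in fz and in N, the Notch receptor, whose member had a signal of 658 and lay 10596 bp from a TSS. Per Mb of deep intronic sequence the list held 71.3 members, and 64.8, 65.7 and 71.3 in the replicates, where all deep intronic sequence held 24.3. Density takes the amount of deep intronic sequence into account, which the share of hosts does not. It does not take distance to a TSS into account. Relative to all other sequence, the deep intronic density over the replicates averaged 0.585 at the 2000 bp limit and 0.474 at 5000 bp.

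Among ecdysone receptor and early response genes, 13 of 24 were hosts (54.2%), at 61.5 members per Mb. Replicates gave 12, 13 and 12 hosts. Hr3, Hr4 and Eip75B led the list, and all 3 encode nuclear receptors that answer the steroid hormone ecdysone. Hr4 held 6 members with signals from 111 to 965, and its strongest lay 5810 bp from a TSS. Eip75B held 5 members in the thresholded list, but 8, 1 and 5 in replicates 1, 2 and 3, so replicate 2 gave few of them.

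Developmental transcription factor genes were hosts in 35 of 80 (43.8%), at 52.6 members per Mb (44.8, 50.4 and 47.6 in the replicates). The strongest were in aop, the ETS repressor Yan (signal 563), in grh, which encodes the epithelial factor Grainyhead (561), and in ken (558), a zinc finger repressor. The list also holds sog, a secreted Dpp antagonist and no transcription factor, with 3 members. Polycomb and Trithorax group genes, which keep gene states through cell division, were hosts in 8 of 30 (26.7%), at 75.8 members per Mb. This list had only 0.251 Mb of deep intronic sequence, and its density was 67.9, 43.9 and 63.9 in the replicates. Counting only members backed by both of 2 replicates, its share of hosts was 16.7% without replicate 1 or 2 and 13.3% without replicate 3, where the share over all genes was 9.73%, 10.4% and 9.28% without replicates 1, 2 and 3. From the top regions of single replicates its share was 26.7%, 16.7% and 16.7%. Its leading hosts were trx, with 3 members and a strongest signal of 793, Psc (548) and jing (330).

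The lists of adhesion and neuronal genes were nearer to the background or below it. Axon guidance and cell adhesion genes were hosts in 30 of 88 (34.1%), but per Mb they held 23.4 members, close to the 24.3 of all deep intronic sequence. Their replicates gave 20.2, 36.8 and 22.2 per Mb, with replicate 2 high. The leading hosts were kirre, mew (506) and Fas3 (442), which encodes the septate junction adhesion protein Fasciclin 3.

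Ion channel and synaptic genes were hosts in 4 of 54 (7.41%), at 4.59 members per Mb. Replicates gave 3.83, 6.89 and 3.06 per Mb, all below the 22.4, 28.0 and 23.01 of all deep intronic sequence. The hosts were Ca-beta, a calcium channel subunit with a strongest signal of 312, Syn, the vesicle protein synapsin (208), Ca-alpha1T, a calcium channel (203), and the potassium channel gene Shal (109). These genes had a median of 12.5 kb of deep intronic sequence, beside 13.4 kb for the transcription factor list. Of the 1.31 Mb in the ion channel and synaptic list, 217 kb lay in Snap25, which held no region in the thresholded list or any replicate. The value over all deep intronic sequence likewise counts Myo81F and Pzl, which held no members. Counting only members backed by both of 2 replicates, the share of hosts was 1.85% without replicate 1 or 3 and 5.56% without replicate 2, beside the same 9.73%, 9.28% and 10.4% over all genes.

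**Figure D3:**
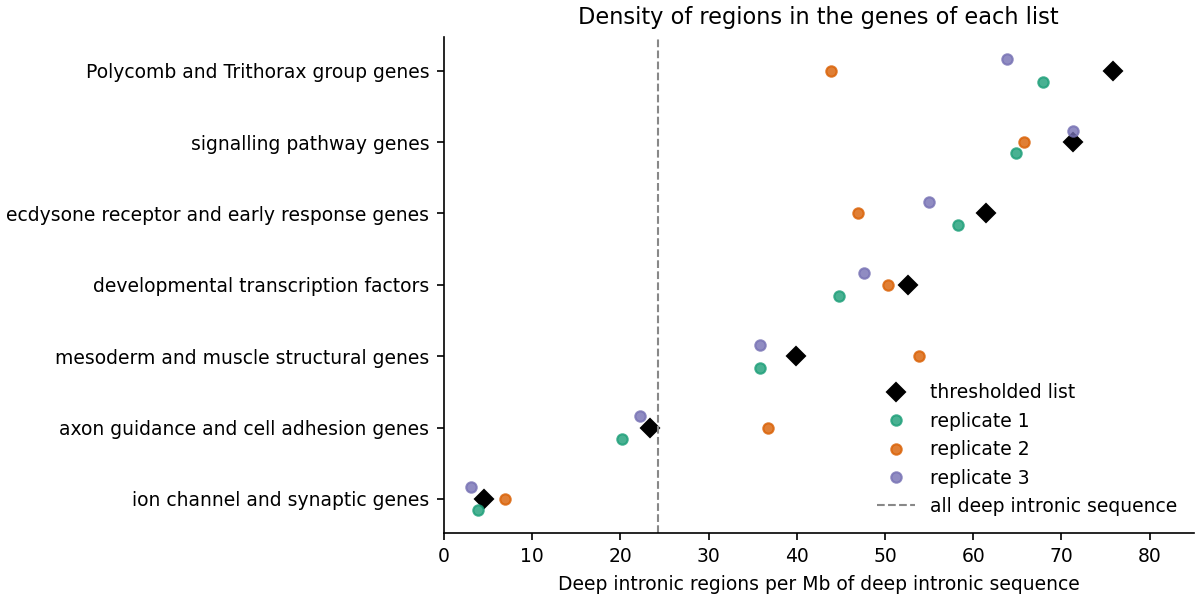
Members per Mb of deep intronic sequence in the genes of 7 lists with at least 0.2 Mb of it (black diamonds, thresholded list; coloured points, the top regions of each replicate, offset vertically), with the value over all deep intronic sequence, 24.3, as a dashed line. Signalling, ecdysone, transcription factor and Polycomb and Trithorax lists lie to its right in every replicate. The muscle list does so too, with 15 of its 20 members in kirre, which is also in the axon guidance and cell adhesion list. Ion channel and synaptic genes, at 4.59, lie to its left in every replicate.

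The remaining lists were short. Mesoderm and muscle structural genes had 5 hosts of 22 (22.7%, beside 12.9% of all genes), at 39.9 members per Mb. They were led by kirre, mbc and how, with kirre giving 15 of their 20 members. Blood and fat body genes had 3 of 13 (23.1%), at 102 members per Mb of only 0.118 Mb. These were ush, kn and lz, and ush gave 9 of the 12 members. Replication licensing and firing genes had 1 of 8 (12.5%), CycE, the cyclin of S phase entry, with 2 members of signal up to 155. These 8 genes had only 0.0116 Mb of deep intronic sequence. SAGA and Gcn5 acetyltransferase genes had none of 9, in the thresholded list and in all 3 replicates. With only 0.0641 Mb of deep intronic sequence in these 9 genes, few members could be looked for there. No cytoplasmic ribosomal protein gene had deep intronic sequence, and the same held for chif itself. The 12 lists overlap: 10 of the 132 listed hosts stood in more than 1 list.

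Members seldom held the core promoter elements of housekeeping genes, as was so of the other regions away from promoters. Windows of 100 bp to either side of the summits were scanned, both strands, for 15 motifs. TATCGATA, the DRE, was in 0.389% of members, 7.24% of promoter regions and 0.447% of the windows that tile deep intronic sequence. GGTCACAC, Motif 1, was in 0.583%, 5.23% and 0.300% of the same sets. Intron regions nearer to a TSS held them in 0.146% (DRE) and 0.292% (Motif 1), and intergenic regions in 0.872% each. In the top regions of the replicates the DRE was lower in deep intronic than in promoter regions, with deep intronic minus promoter at -7.03, -4.55 and -7.82 percentage points, and for Motif 1 at -5.64, -2.11 and -5.18 points. With 3 of 3 replicates in the same direction, the exact sign-flip permutation p was 0.25 for each, the smallest possible, and 0.375 after Benjamini-Hochberg adjustment over the 15 motifs.

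Of the 15 motifs, 10 differed from promoter regions in the same direction in all 3 replicates, each with that same p. Lower in members, besides those above, were CAGCTG, an E-box of proneural and myogenic factors (4.96% against 11.6%), GAGAGAG, the GAGA factor element (1.94% against 4.48%), the Pho element GCCATNTT (2.72% against 3.89%) and the Grainyhead element ACCGGTT (0.194% against 1.13%). Higher was TGANTCA, the AP-1 element, in 6.22% of members, 4.40% of promoter regions and 4.12% of deep intronic windows. The exact binomial 95% interval for members was 4.82% to 7.87%, counting error only, with regions taken as independent. The element was not particular to members, since 5.69% of regions in introns nearer to a TSS held it, and 3.99% of intergenic regions. In the replicates the deep intronic shares were 5.80%, 5.82% and 5.95%, close together and above the 4.44%, 4.28% and 4.18% of promoter regions. CACATG and CACACACA were also higher in each replicate, by 0.82 and 0.95 points on average. GGGCGTG was higher in each replicate, by 0.25 points on average, but in the thresholded list it was in 0.972% of members and 1.01% of promoter regions. All of these except the AP-1 element and Motif 1 were less frequent in members than in deep intronic windows, and the members were also poorer in G and C.

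The G and C content of the windows was 35.5% in members, 37.3% in promoter regions and 40.2% over deep intronic windows. In replicates 1, 2 and 3 the difference from promoter regions was -2.41, 0.96 and -2.34 points, so its sign was not shared. The exact sign-flip permutation p was 0.5.

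A different set of letters was frequent in members, found by counting every 7-letter sequence, with both strands counted as 1, and so chosen after the values were seen and not tested. Ranked by the ratio of members to deep intronic windows among those in at least 5% of members, CACTGAG came first, in 112 members (10.9%), against 1.78% of deep intronic windows and 3.31% of promoter regions. Its share in the top deep intronic regions of replicates 1, 2 and 3 was 10.1%, 10.8% and 10.4%. It was not particular to introns, since 11.8% of intergenic regions held it. The next were CAGTGTA in 10.8% of members and CAGTGCA in 14.8%, against 1.95% and 3.10% of deep intronic windows. Intergenic regions held these words more often than members did, in 13.3% and 17.2%. Regions in introns nearer to a TSS held them in 9.04% and 11.5%.

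The shared core of these words is CACTG, or CAGTG on the other strand, and 7 of the 10 leading words held it. It was in 54.0% of members, 27.2% of deep intronic windows, 46.8% of promoter regions and 55.3% of intergenic regions. The replicates gave 53.3%, 54.5% and 53.9%. CACTC, a word that differs in its last letter, was in 26.1% of members and 27.6% of deep intronic windows.

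Copies of the core stood beside the summits, as in the sequences printed above for aos and kirre. Between 41 and 130 bp from the summit there were 4.54 copies per kb per member, against 2.28 within 40 bp and 1.77 at 300 to 500 bp, with these limits set after the profile was seen. At least 1 copy in that interval was found in 551 members (53.5%), beside 334 (32.5%) at 131 to 220 bp, an interval of the same width. In 178 members (17.3%) there was 1 on each side at 41 to 130 bp, a count for which no background was taken. The strands were uneven. Below the summit there were 250 copies of CACTG and 150 of CAGTG, and above it 171 and 270, so that the core more often read CACTG towards the summit. Promoter regions had a flatter profile.

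**Figure D4:**
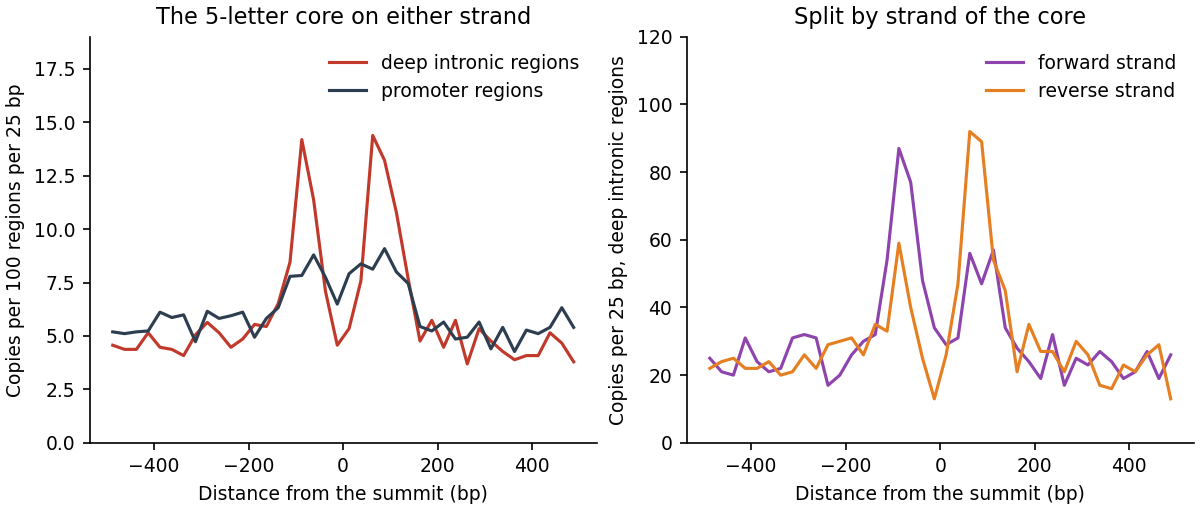
Copies of the 5-letter core by distance from the summit, in bins of 25 bp: left, on either strand per 100 regions, for members and promoter regions; right, in members, split by strand. Members show a peak on each side of the summit, 14.2 and 14.4 copies per 100 regions at their highest, and a dip at the summit to 4.57; the forward strand peaks below it and the reverse strand above it.

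The 112 members with CACTGAG were spread over 95 host genes. Their median signal was 177, and that of the 917 without it was 170. Replicates 1, 2 and 3 backed 85.7%, 83.9% and 86.6% of them, and 81.1%, 74.0% and 85.5% of the members without it. All 3 replicates backed 67.9% of those with the letters and 56.4% of those without, beside the background of 55.9%. The word was found in these same regions, so these values are a description. An untagged library was not analysed here, and the part of general recovery of open chromatin in any of these regions was not tested.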

How the data were processed

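Chif-eGFP was measured by anti-GFP ChIP-seq in 3 biological replicates of 1 group. Per the file headers, the authors deposited region lists on dm6, each region with a signal (their caller's score), a −log10 q-value and a summit offset: 1 list of 30000 per replicate, 1 for the pooled reads, and a thresholded list. Peaks were thus called per sample and on pooled samples. The aligner, caller and settings used are not given in the sources used. With no read counts in them, depth is unknown. Signals rank regions within a list only, and the −log10 values and dm3 lists were not used. P-values measure only the spread between these 3 samples.

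Genes, exons and TSSs came from Ensembl BDGP6.54, release 115, without 5889 transposon entries, and sequence from the RefSeq Release 6 assembly. Coordinates are 1-based. Python 3.11.15, numpy 2.4.6, scipy 1.17.1 and matplotlib 3.10.9 were used. Differences between deep intronic and other regions were taken per replicate and tested by the exact two-sided sign-flip permutation test. The code of the test was checked on fixed numbers with a known answer, and that of the motif shares on simulated sequences. Windows reached 100 bp to either side, and 200857 of them tiled deep intronic sequence without overlap. A summit inside a region was the minimum overlap. The members, motifs and 12 gene lists were chosen with earlier results of these data known. The genes named are the hosts of the 10 strongest members, the 10 hosts with most members (ties by summed signal), the 5 farthest members, the 3 leading hosts per list, the 3 regions on each side of the distance limit, and chif. The genes shn, ey, sog, Shal, Myo81F, Pzl, dpr8 and Snap25 were added after their values were seen. The same holds for ImpL2, CG34417 and CG6959 among the printed sequences. The result of 1 of the 12 lists is not reported here.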

Additional observations from a re-analysis of the deposited data

How the results depend on the processing

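The distance that makes a region deep set the size of the class. With a limit of 5000 bp there were 561 members and 319 protein-coding hosts, the mean share of the replicates' top regions was 11.3%, and the density relative to all other sequence was 0.474, where it was 0.585 at 2000 bp. With 1000 bp the share was 27.7% and the relative density 0.685. The higher-signal 50% of the list held 474 members and 320 hosts; it has no replicates, so the count of motifs with 1 direction was not run on it. Without replicate 1, 2 or 3, members whose interval held a top summit of both others numbered 636 to 754. The difference in backing, with p of 0.5 or 1 in the exact permutation test under every setting tried, changed sign: it was 0.52 points with 1000 bp, 0.21 with protein-coding genes only, 2.90 with 10000 regions per replicate (but -4.07 with 2500), 0.17 with an overlap of 50% of both regions, and -3.78 to 1.80 with 1 replicate left out. Without replicate 2 members were backed less often by both others. Deep intronic regions ranked lower than others on average under every setting tried, the largest difference being at the 5000 bp limit. The difference of GGGCGTG from promoter regions turned to -0.27 in the higher-signal part and to -0.14 in windows of 50 bp to either side; the mean differences of the other 9 motifs with 1 direction kept their sign in every setting tried. The host shares of 6 lists moved by more than the SD between replicates in 24 of 42 settings. The cause of these changes was not tested. No paired analysis was possible because there was 1 group, so replicates pair with no others; region classes were compared within each replicate. Unknown depth and 3 replicates limit all comparisons.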
